A study of Arabidopsis thaliana with 57 samples.

Results

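Rosette leaves of Arabidopsis thaliana that ran short of water were compared with leaves of plants kept in water excess, at the same temperature and light. The comparison rests on 6 libraries, 3 of drought and 3 of humidity, among the 51 libraries of the series that could be matched to a sample by name. A control of 3 libraries marks the level from which each group departed. Each library was centred on its median over the genes with a mean value of at least 3, and genes were looked for that lay above the control in one group and below it in the other. Of 19010 genes tested, 484 (2.55%) did so and passed limma's test against the control in both groups.

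The plants were Col-0, the usual laboratory wild type, grown in cabinets on soil pellets with 12 h of light at 120 µmol m-2 s-1, 22 °C by day, 18 °C by night and 65% relative humidity. In the drought end-point group, water was short from day 15. In the humidity end-point group, trays were sealed over excess water from day 15. For the heat-drought and heat end-point groups the temperature was raised on day 15 to 27 °C in the light period and 23 °C in the dark, and the first of them was also short of water. In the drought-recovery and humidity-recovery groups the same water treatments began on day 12, lasted 3 days and were followed by 3 days in standard conditions. The control group belongs to that recovery setup, so no control of the end-point setup enters the comparison. All groups are 3 libraries of wild-type rosettes harvested on day 18, 6 h after lights on. How dry the soil became, and how sealing changed the air around the leaves or the oxygen at the roots, is not given in the labels. The p-values here reflect the spread among replicates, estimated over all 51 libraries of 17 groups and not from the groups compared alone. The labels do not state that replicates were grown separately, so part of that spread may be technical.

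Abscisic acid (ABA) is the hormone by which plants signal water shortage. NCED enzymes make its precursor, CYP707A enzymes break it down, and PYR/PYL receptors that have bound it shut off the clade A protein phosphatases 2C (PP2Cs), which frees SnRK2 kinases to activate ABF transcription factors. Their target genes encode dehydrins, LEA proteins and enzymes that make protective solutes such as proline and raffinose-family sugars. When water returns, proline is broken down again, starting with proline dehydrogenase.

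Promoters of 6 opposite-side genes are shown because the genes stand at different steps of this pathway: 3 protection genes (RD29A, COR15A, RD20) and a PP2C (PP2CA), all higher in drought and lower in humidity, and proline dehydrogenase (ERD5) and an ABA receptor (PYL4), both lower in drought and higher in humidity. Each run is the 250 bases before the annotated start of the gene in RefSeq's TAIR10.1 assembly, 5′ to 3′ on the gene's strand, and capitals mark matches on either strand to the motifs named after the sequences.
RD29A, chr5:21240467-21240716, plus strand: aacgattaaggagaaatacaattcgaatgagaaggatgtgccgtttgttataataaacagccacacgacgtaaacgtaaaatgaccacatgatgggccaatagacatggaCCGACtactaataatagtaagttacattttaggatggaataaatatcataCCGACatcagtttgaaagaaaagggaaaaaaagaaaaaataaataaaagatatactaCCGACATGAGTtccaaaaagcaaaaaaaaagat
COR15A, chr2:17712331-17712580, minus strand: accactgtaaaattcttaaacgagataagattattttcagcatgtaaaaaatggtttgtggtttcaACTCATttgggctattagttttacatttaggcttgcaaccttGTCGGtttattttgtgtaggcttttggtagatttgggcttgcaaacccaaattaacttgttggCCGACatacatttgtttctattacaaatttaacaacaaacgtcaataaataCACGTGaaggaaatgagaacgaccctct
RD20, chr2:14146556-14146805, minus strand: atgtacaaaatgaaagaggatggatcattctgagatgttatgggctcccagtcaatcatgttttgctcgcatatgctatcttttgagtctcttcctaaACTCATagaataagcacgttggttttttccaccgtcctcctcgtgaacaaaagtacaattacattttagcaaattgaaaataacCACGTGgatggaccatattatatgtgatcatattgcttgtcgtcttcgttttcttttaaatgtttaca
PP2CA, chr3:3585851-3586100, minus strand: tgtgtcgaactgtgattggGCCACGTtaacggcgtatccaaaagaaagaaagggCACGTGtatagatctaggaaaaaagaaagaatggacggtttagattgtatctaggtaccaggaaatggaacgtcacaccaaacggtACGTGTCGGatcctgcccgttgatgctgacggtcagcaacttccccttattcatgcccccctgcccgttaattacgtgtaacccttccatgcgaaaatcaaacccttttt
ERD5, chr3:12451557-12451806, minus strand: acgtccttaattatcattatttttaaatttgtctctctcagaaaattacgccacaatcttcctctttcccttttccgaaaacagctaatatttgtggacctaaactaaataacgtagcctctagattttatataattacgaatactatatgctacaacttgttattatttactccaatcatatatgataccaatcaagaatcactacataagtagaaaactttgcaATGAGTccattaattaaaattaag
PYL4, chr2:16049668-16049917, plus strand: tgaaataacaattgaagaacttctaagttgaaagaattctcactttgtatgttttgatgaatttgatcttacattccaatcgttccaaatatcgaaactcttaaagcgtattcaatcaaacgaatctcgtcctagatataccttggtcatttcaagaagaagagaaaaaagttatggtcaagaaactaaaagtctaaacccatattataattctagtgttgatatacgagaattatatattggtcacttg

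The motifs were ACGTGGC and ACGTGTC (forms of the ABA-responsive element), CACGTG (the G-box), CCGAC (the core of the dehydration-responsive element), ACTCAT (the element known from hypo-osmolarity-responsive genes such as proline dehydrogenase) and AAAATATCT (the evening element of clock-regulated genes). CACGTG can overlap an ABA-responsive form, and in PP2CA the match of CCGAC at base -106 overlaps that of ACGTGTC at base -110, counted back from the start. RD29A had CCGAC at -140, -90 and -33, and COR15A had it at -142 and -79. ACTCAT was at -24 in ERD5, and also at -28 in RD29A, -184 in COR15A and -152 in RD20, which went the other way. None of the motifs occurred in the window of PYL4.

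In the 300-base window from 250 bases before to 50 after the start, 18.9% of the 148 genes that were higher in drought and lower in humidity held at least 1 of the ABA-responsive forms, against 9.04% of 18915 genes tested that have a window. Of the genes lower in drought and higher in humidity, 334 have a window and 5.99% of these held one. CACGTG occurred in 22.3% of the first set, 5.69% of the second and 8.98% of all genes. CCGAC occurred in 22.3%, 13.2% and 16.4% in the same order, ACTCAT in 26 of 148 genes, 61 of 334 genes and 13.9% of all genes, and AAAATATCT in 8.11%, 3.29% and 3.08% of the same sets. A match describes letters, not a bound site, and the shares were not tested.

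The measure is the rlog value, on a log2 scale, in which low counts are shrunk. Library medians differed: drought libraries stood 0.398 to 0.626 above the control mean, humidity libraries 0.009 to 0.09, heat-drought libraries 0.728 to 0.748 and heat libraries 0.024 to 0.124. After centring, a level of 0 is the median gene of that library, and a difference says how a gene moved relative to it. Replicates correlated across genes with r of 0.986 to 0.995 in drought, 0.991 to 0.998 in humidity and 0.996 to 0.998 in the control. Humidity replicate 3 stood apart: 118 genes lay more than 1 above both other humidity libraries where those were within 0.5 of each other, and 5 lay below. The same count was 100 above and 1 below for drought replicate 3, and at most 29 above and 9 below in the other libraries of the 3 groups.

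The leaf label was checked against markers. The 5 mesophyll markers had a mean rlog, as deposited, of 16.3 to 16.7 in drought, 17.1 to 17.3 in humidity and 17.0 to 17.2 in the control, and root and flower markers had means between 0.979 and 1.06, with 1 of 6 root and 1 of 5 flower markers past the filter on low values. The root marker that passed, SHR, stood at 7.43 to 7.55 in drought, 7.28 to 7.62 in humidity and 7.62 to 7.73 in the control. Shoot meristem markers, of which 3 of 5 passed, had means of 2.52 to 2.70 in drought, 2.34 to 2.46 in humidity and 2.32 to 2.45 in the control, and among them KNAT1, a meristem homeobox gene, stood at 6.06 to 6.42 in drought, 5.71 to 6.06 in humidity and 5.67 to 5.89 in the control. Of the 3 meristem markers that passed, 3 were higher in drought than in the control by limma's test as deposited, and after centring 0 were higher and 1 lower. Phloem markers stood, as deposited, at 10.4 to 10.5 in drought, 9.58 to 9.62 in humidity and 9.62 to 9.78 in the control. All 5 were higher in drought than in the control by limma's test as deposited. After centring 2 were higher and 0 lower, with a median difference of -0.02. None of the 6 seed markers passed the filter on low values, though EM1, a late embryogenesis protein that ABA also induces, was at 6.23 to 11.5 in drought and 1.75 to 1.79 in humidity. Fewer cells of a type and less RNA per cell cannot be told apart in bulk leaves, and the part of phloem, mesophyll or meristem content in the results was not tested.

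Drought and humidity leaves differed in most genes. Between them, 12691 of 19010 genes (66.8%) passed limma's test (adjusted p of at most 0.05), 4748 (25.0%) higher and 7943 (41.8%) lower in drought. This split depends on the centring, since with values as deposited 11129 were higher and 2198 lower in drought. Differences of at least 1 on the log2 scale numbered 966 higher (5.08%) and 1172 lower (6.17%). Against the control, drought differed in 12826 genes (67.5%), 4802 higher (25.3%) and 8024 lower (42.2%), or 11675 and 1820 as deposited. Humidity differed from the control in 1120 (5.89%), 680 higher (3.58%) and 440 lower (2.31%), or 852 and 243 as deposited. Counts of list members below are to be read beside these shares over all genes.

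Among the 8 highest differences of drought over humidity were dehydrin and LEA genes. HSFA6A (AT5G43840), a heat shock transcription factor known to respond to ABA, stood at centred levels of 4.99, 2.81 and 4.82 in drought and -6.04, -6.05 and -5.58 in humidity, a difference of 10.096 (adjusted p = 5.44e-16). The dehydrin RAB18 (AT5G66400) stood at 9.58, 8.00 and 10.38 in drought and -0.24, -0.75 and -0.15 in humidity, 832-fold apart. Its control libraries, at 1.03, 0.48 and 0.99, lay above those of humidity, but humidity minus control, -1.21 ± 0.62 (SE), did not pass (adjusted p = 0.294). The other 6 of the 8 highest were the LEA-family genes AT3G02480 (difference 9.95), AT5G66780 (8.91) and LEA7 (8.91), the lipid-transfer-type genes AT2G37870 (9.94) and LTP3 (9.16), and RD29B (9.77), a classic ABA target. Drought replicates spread over 3.24 for RD29B and 5.04 for AT5G66780. None of these 8 genes passed the test in humidity against the control.

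**Figure D1:**
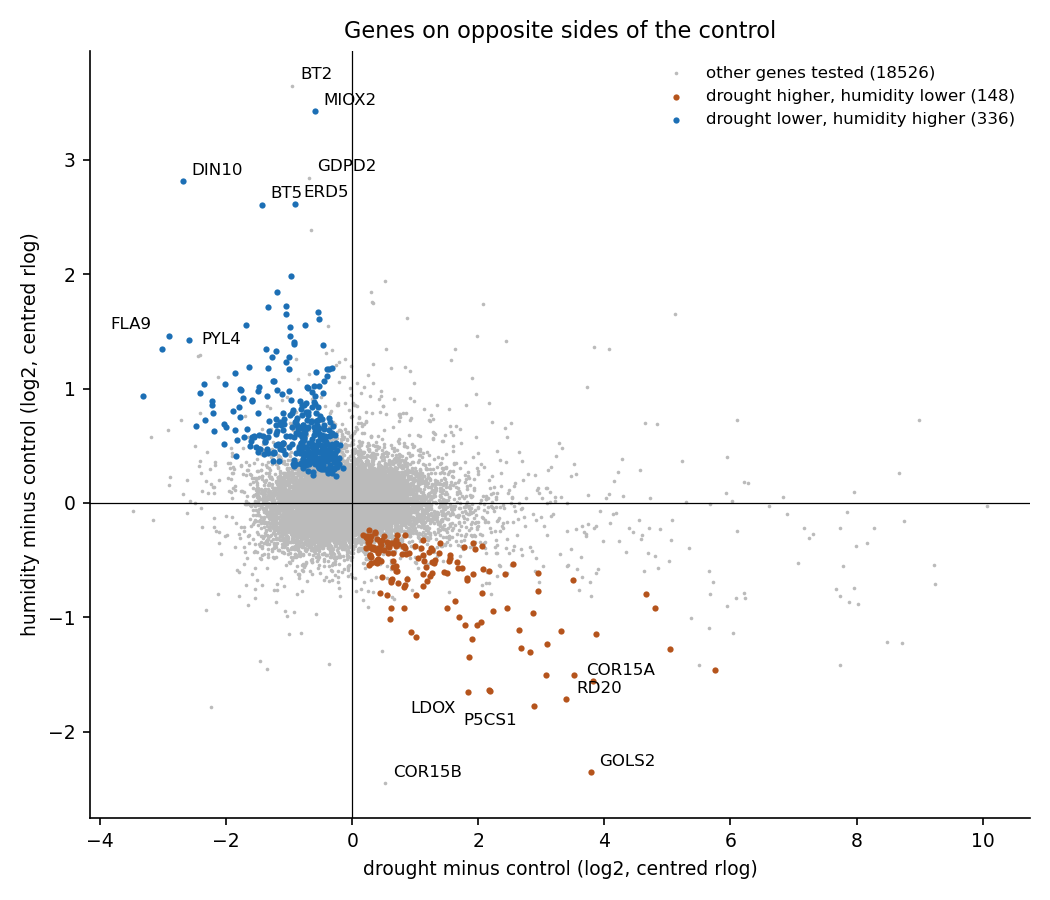
Difference of drought minus control (x, log2, centred rlog) against humidity minus control (y, same scale) for each gene tested; orange, the 148 genes higher in drought and lower in humidity; blue, the 336 lower in drought and higher in humidity; grey, the others. The x axis reaches 10.07 for HSFA6A, at -0.03 in y, while GOLS2, P5CS1 and RD20 lie far from both axes at lower right and DIN10 and FLA9 at upper left.

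A gene was placed on opposite sides when it passed the test against the control in both groups, with opposite signs. There were 148 genes higher in drought and lower in humidity (0.779% of genes tested) and 336 lower in drought and higher in humidity (1.77%). Counts of list members on opposite sides below are to be read beside these 2 shares. Both differences use the same 3 control libraries, so an error in the control moves both the same way. The 148 are 33.6% of the 440 genes lower in humidity and 3.08% of the 4802 higher in drought. The 336 are 49.4% of the 680 genes higher in humidity and 4.19% of the 8024 lower in drought. These shares are to be read beside those over all genes tested. Of all genes, 25.3% were higher and 42.2% lower in drought than in the control, and 2.31% were lower and 3.58% higher in humidity. Many opposite-side calls can thus arise because drought moved most genes. In humidity 74 genes were at least 1 higher (0.389%) and 31 at least 1 lower (0.163%) than the control, and 71 of these 105 (67.6%) were on opposite sides. In 462 of the 484 (95.5%), all drought libraries lay on one side of all control libraries and all humidity libraries on the other, a pattern seen in 680 (3.58%) and 1139 (5.99%) of all genes in the 2 directions. The 484 were chosen by tests on these same libraries, so a high share is built into the choice and is only a description. At the edge of the humidity test, ML4 passed at a difference of -0.32 and AT3G53980, at -1.10 with a wider spread, did not.

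Which genes were called depended on single libraries. Without humidity replicate 3 the counts were 86 and 163, and 234 of the 484 genes remained. Without control replicate 2 the counts were 96 and 224, and without control replicate 3 they were 62 and 203. As deposited the counts were 141 (0.742%) and 176 (0.926%), with 212 genes shared with the 484. Of 66 opposite-side genes chosen for naming, 47 remained without humidity replicate 3 and 46 remained as deposited.

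ABA synthesis separated the groups at NCED3 (AT3G14440), the 9-cis-epoxycarotenoid dioxygenase that limits ABA synthesis in drying leaves. NCED3 stood at 1.54, 1.45 and 2.42 in drought, -2.65, -2.52 and -2.42 in humidity and -1.71, -1.23 and -0.95 in the control, with no overlap between the 3 groups. Its differences from the control were 3.09 ± 0.28 in drought and -1.24 ± 0.28 in humidity (adjusted p = 0.00478), or 8.54-fold and 0.424-fold. Without control replicate 3 the humidity difference was -1.06 and did not pass. Of 14 measured genes of ABA synthesis and breakdown, 9 were higher and 2 lower in drought than in humidity (12 and 0 as deposited). AAO3, the aldehyde oxidase of the last synthesis step, had differences from the control of 1.81 ± 0.21 in drought and -0.09 ± 0.21 in humidity, where it did not pass. CYP707A1, an ABA 8′-hydroxylase that breaks the hormone down, had differences of 3.32 ± 0.27 in drought and 0.48 ± 0.27 in humidity, where it did not pass (adjusted p = 0.358).

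The receptors went the other way. Of 9 measured PYR/PYL receptor genes, 7 were lower in drought than in humidity and 0 were higher (7 and 2 as deposited). On opposite sides were 5 of them, lower in drought and higher in humidity, as were 1.77% of all genes: PYL4, PYL5, PYL6, PYL8 and PYR1. PYL4 (AT2G38310) stood at -1.12, -1.64 and -1.88 in drought, 2.5, 2.59 and 2.35 in humidity and 1.42, 0.91 and 0.82 in the control. Drought was 0.165 and humidity 2.69 times the control (humidity difference 1.43 ± 0.24, adjusted p = 0.000182). PYL5 (AT5G05440) was at -3.05, -2.63 and -2.79 in drought, -0.04, 0.20 and 0.56 in humidity and -1.17, -1.46 and -1.80 in the control. In both genes the 9 libraries fell into 3 separate ranges, drought lowest and humidity highest.

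Among the other receptors, PYL6 had differences from the control of -0.99 ± 0.17 in drought and 1.46 ± 0.17 in humidity. PYL8 had differences of -1.50 ± 0.12 in drought and 0.45 ± 0.12 in humidity, and its humidity call was lost without humidity replicate 3 or control replicate 3 (0.38 to 0.41). PYR1 had a difference of -0.47 ± 0.10 in drought, which was 0.07 and did not pass as deposited, and of 0.97 ± 0.10 in humidity (adjusted p = 9.29e-09). PYL1 and PYL2 had differences of -1.18 ± 0.10 and -0.77 ± 0.10 in drought and did not pass in humidity. PYL7 and PYL9 passed in neither group.

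The phosphatases that the receptors inhibit were higher in drought. All 7 measured clade A PP2C genes were higher in drought than in humidity (median difference 3.56, against -0.12 over all genes), and 4 were on opposite sides. PP2CA (AT3G11410) stood at 4.80, 4.52 and 4.92 in drought, 1.03, 0.94 and 1.14 in humidity and 1.599, 1.80 and 2.03 in the control. Its differences from the control were 2.94 ± 0.15 in drought and -0.77 ± 0.15 in humidity (adjusted p = 0.000953), and the groups did not overlap. HAB2 had differences of 1.38 ± 0.09 in drought and -0.44 ± 0.09 in humidity. ABI1 and ABI2, the phosphatases first known from ABA-insensitive mutants, had differences of 1.95 ± 0.12 and 2.94 ± 0.18 in drought. Their humidity differences, -0.40 ± 0.12 and -0.62 ± 0.18, had adjusted p = 0.037 and 0.0317. They did not pass as deposited, and leaving out single libraries ended the call in all 6 cases for ABI1 (-0.43 to -0.36) and in all but control replicate 1 for ABI2 (-0.63 to -0.51). HAI1 and HAI2, known as drought-induced members, had differences of 7.67 ± 0.63 and 6.23 ± 0.42 in drought, with -0.75 ± 0.63 and -0.83 ± 0.42 in humidity, which did not pass.

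**Figure D2:**
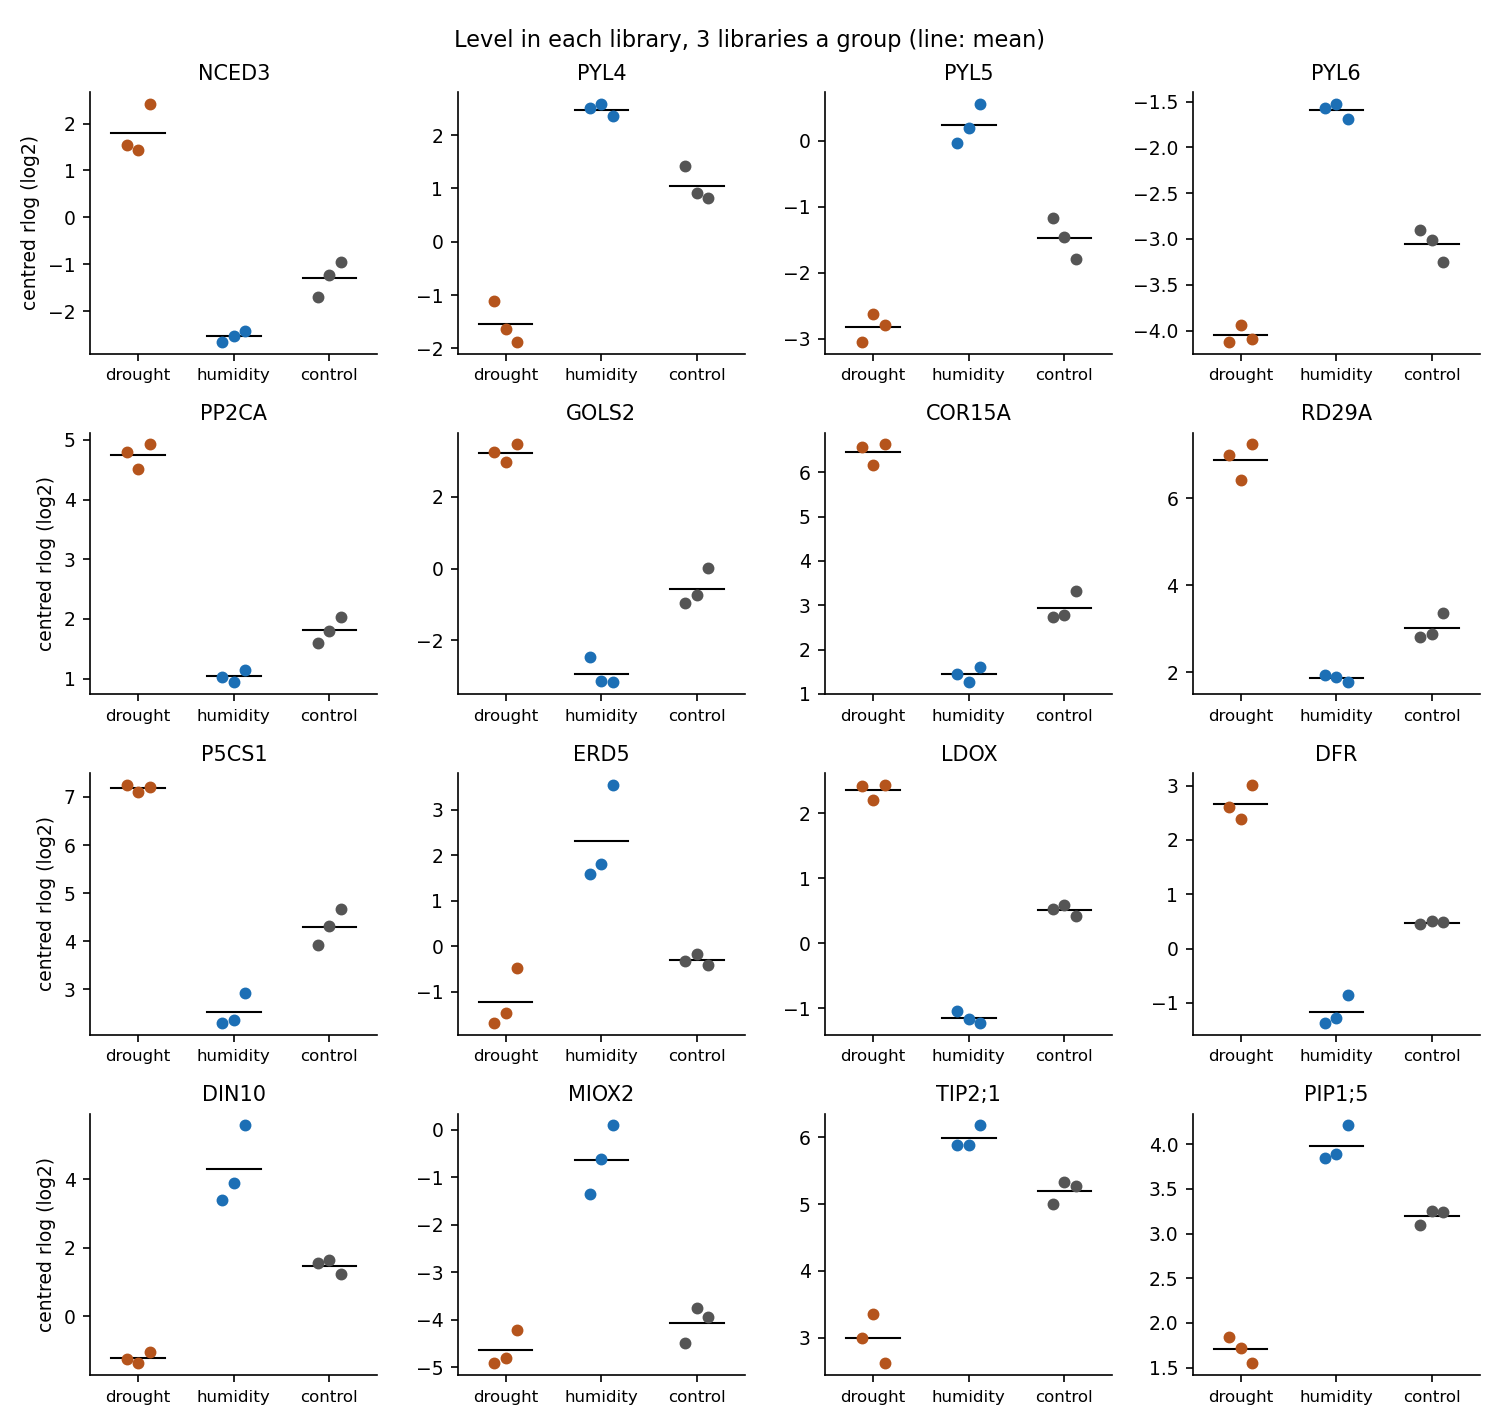
Centred rlog level (y, log2) of 16 genes in each of the 9 libraries of drought, humidity and control (x), with the group mean as a line. In NCED3, PP2CA, GOLS2, COR15A, RD29A, P5CS1, LDOX and DFR the drought libraries are highest and the humidity libraries lowest; in the other 8 panels the humidity libraries are highest, and the third humidity library of DIN10 and ERD5 lies above the other two.

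Kinases and transcription factors of the pathway moved in drought, with few calls in humidity. Of 13 measured, 12 were higher and 0 lower in drought than in the control, and 0 were higher and 1 lower in humidity. The gene lower in humidity was HB-7, a homeodomain factor induced by ABA, with levels of 4.47, 4.16 and 4.69 in drought, -1.34, -0.99 and -0.70 in humidity and -0.46, -0.23 and 0.04 in the control. Its humidity difference of -0.79 ± 0.21 (adjusted p = 0.0161) did not pass as deposited (-0.74), without humidity replicate 1 or without control replicate 2 or 3 (-0.80 to -0.63). ABF2, a bZIP factor that binds ABA-responsive elements, had differences from the control of 2.33 ± 0.11 in drought and -0.14 ± 0.11 in humidity. RD26 and NAC019, NAC factors of dehydration, had differences of 4.07 ± 0.32 and 3.09 ± 0.51 in drought, with 0.08 ± 0.32 and -0.004 ± 0.51 in humidity, and none of these 3 genes passed in humidity.

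Dehydration and cold protection genes were higher in drought than in humidity in 22 of 22 measured members. Against the control, 21 were higher in drought and 7 lower in humidity, and 6 were on opposite sides (COR15A, GOLS2, HIS1-3, KIN2, RD20 and RD29A). The medians were 3.82 in drought and -0.88 in humidity, against -0.13 and -0.01 over all genes. GOLS2 (AT1G56600), a galactinol synthase of the raffinose pathway, stood at 3.24, 2.97 and 3.46 in drought, -2.46, -3.14 and -3.16 in humidity and -0.96, -0.74 and 0.01 in the control. That is 13.8-fold the control in drought and 0.195-fold in humidity (difference -2.36 ± 0.32, adjusted p = 7.91e-06). COR15A (AT2G42540), a chloroplast protein that protects membranes during freezing, stood at 6.57, 6.17 and 6.63 in drought, 1.45, 1.26 and 1.61 in humidity and 2.73, 2.77 and 3.33 in the control. RD20 (AT2G33380), a caleosin of lipid bodies, was at 3.26, 3.34 and 4.24 in drought, -1.63, -1.57 and -1.29 in humidity and -0.22, 0.02 and 0.85 in the control. In these 3 genes every humidity library was below, and every drought library above, every control library.

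The humidity difference of COR15A was -1.51 ± 0.38 (adjusted p = 0.013) and did not pass without control replicate 3 (-1.31), and that of RD20 was -1.72 ± 0.35 (adjusted p = 0.00199). RD29A (-1.15 ± 0.35), KIN2 (-1.19 ± 0.37) and HIS1-3 (-1.28 ± 0.39) passed in humidity with adjusted p = 0.045, 0.0452 and 0.0445. Leaving out any 1 humidity or control library ended the call for RD29A (-1.25 to -0.98) and KIN2 (-1.27 to -1.08), and leaving out humidity replicate 1 or 2 or control replicate 1 or 3 ended it for HIS1-3 (-1.35 to -0.87). RD29A and HIS1-3 did not pass as deposited.

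COR15B, the neighbour of COR15A and similar to it in sequence, so that reads could have been split between them, had the lowest humidity difference called. It stood at 2.62, 2.78 and 2.06 in drought, -0.33, -0.70 and -0.42 in humidity and 1.72, 1.90 and 2.28 in the control. Humidity minus control was -2.45 ± 0.48 (adjusted p = 0.00122), and drought minus control, 0.52 ± 0.48, did not pass (adjusted p = 0.342).

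Proline genes showed both directions within a single pathway. P5CS1 (AT2G39800), the enzyme that limits proline synthesis, stood at 7.25, 7.10 and 7.22 in drought, 2.298, 2.35 and 2.91 in humidity and 3.92, 4.32 and 4.67 in the control. It was 7.4-fold the control in drought and 0.291-fold in humidity (differences 2.89 ± 0.26 and -1.78 ± 0.26, humidity adjusted p = 1.35e-05). The breakdown gene ERD5 (AT3G30775), whose promoter is shown above, had the reverse order. ERD5 stood at -1.68, -1.48 and -0.49 in drought, 1.59, 1.80 and 3.54 in humidity and -0.33, -0.18 and -0.41 in the control. It was 6.14-fold the control in humidity (difference 2.62 ± 0.33, or 2.00 without humidity replicate 3), and 0.533-fold in drought (difference -0.91 ± 0.33, which was -0.37 and did not pass as deposited). Among the other 6 proline genes, P5CS2, a second synthesis gene, and P5CDH, of the second breakdown step, had differences of 1.80 ± 0.15 and 1.02 ± 0.08 in drought and 0.21 ± 0.15 and -0.11 ± 0.08 in humidity, where they did not pass. Over the 8 genes, 3 were higher and 3 lower in drought than in humidity (5 and 1 as deposited). The group S1 bZIP factors, known to act on proline dehydrogenase through ACTCAT, could not be read: all 5 (BZIP1, BZIP2, BZIP11, BZIP44 and BZIP53) are listed at 0 in every library.

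Anthocyanin genes were also high in drought and low in humidity. Of 18 measured flavonoid and anthocyanin genes, 14 were higher and 0 lower in drought than in humidity, 10 were lower and 1 higher in humidity than in the control, and 9 were on opposite sides (7 without humidity replicate 3). LDOX (AT4G22880), the dioxygenase that makes anthocyanidins, stood at 2.41, 2.204 and 2.43 in drought, -1.04, -1.17 and -1.22 in humidity and 0.52, 0.59 and 0.42 in the control. Its differences were 1.84 ± 0.27 in drought and -1.65 ± 0.27 in humidity (adjusted p = 0.000132), so the control lay near the middle of the distance. DFR (AT5G42800), the reductase before it, was at 2.61, 2.38 and 3.01 in drought, -1.37, -1.28 and -0.85 in humidity and 0.44, 0.50 and 0.49 in the control. Again the 3 groups did not overlap.

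GSTF12, which takes part in carrying anthocyanins to the vacuole, had differences of 2.17 ± 0.22 in drought and -1.64 ± 0.22 in humidity. TT4, the chalcone synthase that opens the pathway, had 1.98 ± 0.22 and -1.07 ± 0.22. UF3GT, a glycosyltransferase of anthocyanins, had 1.79 ± 0.23 and -1.07 ± 0.23, and the malonyltransferase 5MAT had 1.01 ± 0.19 and -1.18 ± 0.19. Regulators of the pathway are next. The activator MYB75 (AT1G56650) stood at 1.09, 0.91 and 1.02 in drought, -2.91, -2.91 and -2.63 in humidity and -1.80, -1.95 and -1.82 in the control. Its bHLH partner TT8 had 1.27 ± 0.16 in drought and -0.62 ± 0.16 in humidity, and the humidity call was lost without humidity replicate 3 or control replicate 2 (-0.65 to -0.54). The drought libraries of the related activator MYB90 spread over 6.23, at 1.04, -0.61 and 5.63, and humidity minus control, 0.02 ± 0.68, did not pass. F3H, the flavanone hydroxylase of the middle of the pathway, was near the lowest value of the table in every library and was not tested.

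Other genes high in drought and low in humidity included SWEET4, a sugar transporter, at 1.64, 1.02 and 3.03 in drought, -3.67, -3.55 and -3.22 in humidity and -2.16, -1.92 and -1.67 in the control. CER1, of alkane synthesis for wax, had differences of 1.63 ± 0.20 in drought and -0.86 ± 0.20 in humidity, where it did not pass without control replicate 3 (-0.73), and KCS2, of fatty acid elongation, had differences of 2.64 ± 0.17 and -1.12 ± 0.17. Their list did not move as a whole: of 34 cuticle and wax genes, 9 were higher and 19 lower in drought than in humidity, or 15 and 8 as deposited. Over all genes tested the shares after centring were 25.0% higher and 41.8% lower. Of the remaining genes with large distances on both sides, AT3G05640 encodes a further PP2C-family protein (1.85 ± 0.28 in drought and -1.35 ± 0.28 in humidity), AT4G33550 a lipid-transfer-type protein (5.76 ± 0.35 and -1.46 ± 0.35), and AT3G27250 (3.08 ± 0.34 and -1.50 ± 0.34) and AT1G76960 (2.82 ± 0.39 and -1.31 ± 0.39) are uncharacterized. The humidity calls of AT4G33550 and AT3G27250 were lost without control replicate 3 (-1.12 and -1.27). That of AT1G76960 was lost as deposited and when any 1 humidity or control library was left out (-1.49 to -1.19).

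Among genes low in drought and high in humidity, DIN10 (AT5G20250) had the largest distance between the treatments. It belongs to the raffinose synthase family and is known as a gene induced by darkness and sugar starvation. DIN10 stood at -1.23, -1.37 and -1.04 in drought, 3.40, 3.89 and 5.56 in humidity and 1.55, 1.65 and 1.22 in the control, which is 0.155-fold and 7.04-fold the control (humidity difference 2.82 ± 0.38, adjusted p = 6.1e-06, or 2.18 without humidity replicate 3). FLA9 (AT1G03870), a fasciclin-like arabinogalactan protein of the cell wall, stood at -1.3, -1.17 and -1.71 in drought, 2.92, 3.02 and 3.02 in humidity and 1.56, 1.56 and 1.46 in the control. In both genes the 3 groups did not overlap, and FLA9 varied over only 0.10 within the humidity group. AT1G22690, a gibberellin-regulated family gene, had differences of -3.01 ± 0.28 in drought and 1.35 ± 0.28 in humidity. AT5G44020, an acid phosphatase family gene, had -3.33 ± 0.20 and 0.94 ± 0.20, and PATL2, a patellin of membrane traffic, -1.36 ± 0.20 and 1.35 ± 0.20. The aspartyl protease family gene AT5G19120 had -1.68 ± 0.24 and 1.56 ± 0.24, AT3G50560, of the Rossmann-fold superfamily, -1.21 ± 0.15 and 1.33 ± 0.15, and AT1G27020 -1.64 ± 0.24 and 1.19 ± 0.24.

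Several genes in this direction rested on humidity replicate 3 for their call or for much of their size. BT5, a BTB and TAZ domain protein, stood at -3.48, -3.39 and -3.64 in drought, -1.19, -0.80 and 3.61 in humidity, a range of 4.80, and -1.92, -2.09 and -2.201 in the control. Its humidity difference was 2.61 ± 0.55, and 1.08 without replicate 3, which still passed limma's test (adjusted p = 0.00055). The beta-galactosidase BGAL4 was at 0.08, 0.03 and 2.04 in humidity and -0.29, -0.60 and -0.79 in the control. The sugar transporter STP1 was at 2.36, 2.71 and 4.82 in humidity and 2.102, 2.19 and 2.09 in the control, and AT3G15450, annotated as aluminum induced, at 2.81, 3.38 and 5.60 in humidity and between 1.89 and 2.25 in the control. In each of these the third humidity library was the highest. Without replicate 3, BGAL4, STP1 and AT3G15450 did not pass in humidity (0.61, 0.41 and 1.01), and as deposited none of the 4 passed in drought. Of 23 starch and sugar genes, 1 was on opposite sides with drought higher (SEX4) and 3 with drought lower (STP1, SWEET16 and BAM3), and all 4 lost the humidity call without replicate 3 (-0.36, 0.41, 0.30 and 0.33). Other single libraries also ended that call: control replicate 3 for STP1, control replicate 2 or 3 for BGAL4 and BAM3, and humidity replicate 1 or any control replicate for SEX4, and over all such cases the values were 0.41 to 1.15, 0.61 to 1.25, 0.33 to 0.65 and -0.47 to -0.36. In a fit on the humidity and control libraries alone, BT5, DIN10 and ERD5 did not pass.

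MIOX2 (AT2G19800), a myo-inositol oxygenase, had the second highest humidity difference of all genes and a small drought one. It stood at -4.92, -4.82 and -4.21 in drought, -1.36, -0.62 and 0.09 in humidity and -4.48, -3.76 and -3.94 in the control. Humidity was 10.8-fold the control (3.43 ± 0.23, adjusted p = 3.1e-12, or 3.07 without replicate 3). Drought minus control was -0.59 ± 0.23, or -0.05 as deposited, and drought overlapped the control.

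Water channels were mostly lower in drought and close to the control in humidity. Of 27 measured aquaporins, 3 were higher and 18 lower in drought than in humidity (8 and 13 as deposited), and in humidity 2 were higher and 1 lower than in the control. The shares over all genes were 25.0% higher and 41.8% lower in the first comparison, and 3.58% and 2.31% in the second. The plasma membrane channel PIP1;5 (AT4G23400) was at 1.84, 1.72 and 1.55 in drought, 3.84, 3.90 and 4.21 in humidity and 3.10, 3.25 and 3.24 in the control (humidity difference 0.79 ± 0.17, adjusted p = 0.00198). TIP2;1, a tonoplast channel, stood at 3.00, 3.36 and 2.62 in drought, 5.88, 5.89 and 6.18 in humidity and 5, 5.33 and 5.27 in the control. Neither channel overlapped between groups, but the humidity call of TIP2;1 (0.78 ± 0.23) was lost when humidity replicate 2 or 3 or any control replicate was left out (0.68 to 0.85). PIP2;5 was on the other side, at 1.304 ± 0.13 in drought and -0.53 ± 0.13 in humidity, and did not pass in humidity without control replicate 3 (-0.38). PIP1;2, PIP2;1 and TIP1;2, among the abundant leaf channels, had differences from the control of -0.67 ± 0.20, -1.18 ± 0.22 and -1.98 ± 0.27 in drought and 0.02 ± 0.20, 0.23 ± 0.22 and 0.22 ± 0.27 in humidity, where they did not pass.

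Of 31 measured expansins and xyloglucan enzymes, which loosen or remodel the wall, 18 were lower and 4 higher in drought than in the control (12 and 9 as deposited). In humidity 8 were higher and 2 lower, or 3 and 1 without humidity replicate 3. The shares over all genes were 42.2% lower and 25.3% higher in drought, and 3.58% higher and 2.31% lower in humidity. XTH4, a xyloglucan endotransglucosylase, had differences of -2.22 ± 0.19 in drought and 0.85 ± 0.19 in humidity (adjusted p = 0.00291), and XTH15 -0.95 ± 0.16 and 0.82 ± 0.16. EXLB1, an expansin-like gene, went the other way in drought, at 4.15 ± 0.16, with 0.19 ± 0.16 in humidity, which did not pass. GASA1, a gibberellin-regulated gene, had differences of -1.77 ± 0.22 and 0.99 ± 0.22 and lost the humidity call without humidity replicate 3 (0.79).

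Of 17 ethylene genes, 2 were higher and 7 lower in drought than in humidity (9 and 4 as deposited), a share of lower genes near the 41.8% over all genes. Of the same genes, 4 were higher and 0 lower in humidity than in the control, and 3 were on opposite sides. ACO4, an oxidase that makes ethylene, had differences of -1.21 ± 0.16 in drought and 0.68 ± 0.16 in humidity (humidity adjusted p = 0.0056). The receptor gene ETR2 had differences of -0.61 ± 0.17 in drought, which was -0.07 as deposited, and 0.59 ± 0.17 in humidity, where it did not pass without humidity replicate 2 or control replicate 1 or 3 (0.44 to 0.58). ACS2, a synthase of the ethylene precursor, had differences of 2.58 ± 0.37 in drought and 0.18 ± 0.37 in humidity, where it did not pass.

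**Figure D3:**
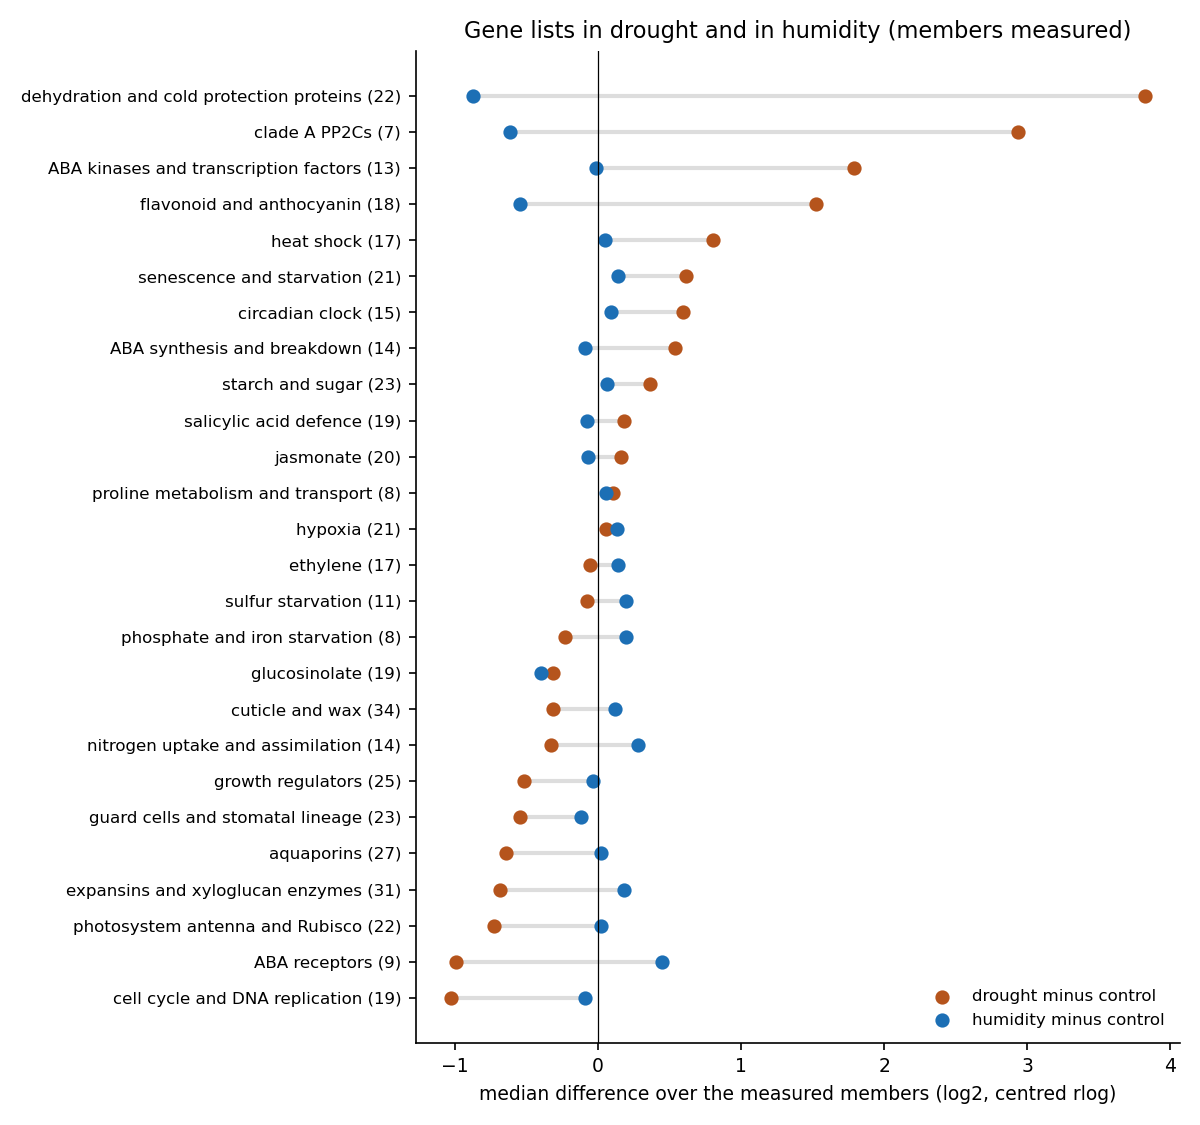
Median difference over the measured members of each gene list (x, log2, centred rlog) for drought minus control (orange) and humidity minus control (blue), with the number of members measured in parentheses (y, ordered by the drought median). The orange points reach 3.82 for dehydration and cold protection and -1.03 for the cell cycle, where the blue points lie at -0.88 and -0.09.

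Genes of low oxygen were examined because water excess can limit oxygen. Of 21 measured hypoxia genes, 2 were higher and 0 lower in humidity than in the control, beside 3.58% and 2.31% of all genes. Those were RAP2.2, a factor of oxygen sensing, at 2.76, 2.85 and 2.49 in humidity and 2.27, 2.14 and 2.09 in the control (0.54 ± 0.08, adjusted p = 8.28e-06), and the desaturase gene SAD6, at -2.14, -2.76 and -3.18 in humidity and -3.16, -3.25 and -3.27 in the control (0.53 ± 0.16, adjusted p = 0.0369). The alcohol dehydrogenase ADH1 (AT1G77120), a usual marker of low oxygen, stood at 2.116, 1.64 and 3.48 in drought, -0.80, -1.26 and -0.95 in humidity and -1.01, -1.14 and -0.85 in the control. ADH1 thus had differences from the control of 3.41 ± 0.35 in drought and -0.01 ± 0.35 in humidity (adjusted p = 3.3e-10 and 0.997). The sucrose synthase SUS1 had differences of 2.28 ± 0.22 in drought and -0.44 ± 0.22 in humidity, where it did not pass. The fermentation genes PDC1 and PDC2 had humidity differences of -0.07 ± 0.12 and 0.28 ± 0.13 and did not pass. As a list the 21 genes were mixed in drought, with 8 higher and 6 lower than in the control (16 and 1 as deposited). The shares over all genes there were 25.3% and 42.2%. RNA came from rosettes, so roots were not measured.

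Of the 6 genes highest in humidity against the control, 3 had most of the difference in humidity replicate 3. BT2, related to BT5, stood at -2.21, -2.13 and 6.295 in humidity, a range of 8.51, and -3.14, -2.89 and -2.97 in the control. GDPD2, a phosphodiesterase family gene, stood at -2.53, -2.03 and 3.59 in humidity, a range of 6.12, and -3.37, -3.12 and -3.02 in the control. Without replicate 3 the humidity differences were 0.83 for BT2 (adjusted p = 0.0962) and 0.89 for GDPD2 (adjusted p = 0.000761), beside 3.65 ± 0.99 and 2.85 ± 0.69 with it, and BT5 was the third. BT2 also did not pass when any 1 control library was left out, with values over all such cases of 0.83 to 3.71. PORA, a light-dependent enzyme of chlorophyll synthesis, was lower than the control in both treatments, at -0.87, -0.51 and -1.45 in drought, 0.06, -0.46 and -1.05 in humidity and 1.34, 1.33 and 1.23 in the control.

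All 19 measured cell cycle and DNA replication genes were lower in drought than in humidity (median -0.94, and 16 as deposited), and 0 were lower and 0 higher in humidity than in the control. PCNA1, the sliding clamp of replication, had differences of -1.50 ± 0.14 in drought and -0.26 ± 0.14 in humidity, where it did not pass. Of 22 photosystem antenna and Rubisco genes, 10 were lower and 1 higher in drought than in the control (5 and 2 as deposited), a share of lower genes near the 42.2% over all genes. The Rubisco small subunit genes RBCS1B, RBCS2B and RBCS3B, near-identical copies that reads may not tell apart, had differences of -2.63 ± 0.28, -2.27 ± 0.34 and -1.76 ± 0.38 in drought and -0.09 ± 0.28, 0.30 ± 0.34 and 0.33 ± 0.38 in humidity, where none of them passed.

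Of 23 genes of guard cells and the stomatal lineage, 1 was higher and 16 were lower in drought than in humidity (7 and 9 as deposited). The higher one was GORK, an outward potassium channel (1.28, adjusted p = 6.19e-10), and the guard cell factor MYB60 was among the lower ones (-1.38, adjusted p = 3.08e-12). Heat shock genes were higher in drought than in the control in 13 and lower in 2 of 17 measured, and in humidity 2 were higher and 0 lower. The 2 higher in humidity, HSFA3 and HSFA7A (0.38 ± 0.10 and 0.61 ± 0.10), were the 2 lower in drought (-0.64 ± 0.10 and -0.52 ± 0.10), where neither passed as deposited, and HSFA3 lost its humidity call without humidity replicate 3 or control replicate 1 (0.32 to 0.34). Of 20 jasmonate genes, 10 were higher and 4 lower in drought than in humidity, among them the vegetative storage protein gene VSP2, at 4.21, 3.81 and 3.52 in drought and -0.78, -0.58 and -0.15 in humidity. Of 19 genes of salicylic acid defence, 2 were higher and 0 lower in drought than in humidity (9 and 0 as deposited). Over all genes tested, 25.0% were higher and 41.8% lower in drought than in humidity. Against the control the shares were 25.3% and 42.2% in drought, and 3.58% and 2.31% in humidity.

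Against the control, where 3.58% of all genes were higher in humidity and 2.31% lower, humidity had 3 of 15 clock genes higher and 0 lower, 3 of 14 nitrogen genes higher and 0 lower, and 4 of 11 sulfur starvation genes higher and 0 lower. Senescence and starvation genes had 3 of 21 higher and 0 lower, growth regulators 1 of 25 higher and 1 lower, glucosinolate genes 0 of 19 higher and 1 lower, and phosphate and iron genes 0 of 8 higher and 1 lower. Without humidity replicate 3, higher calls were 0 for the clock, 2 for nitrogen, 2 for sulfur and 1 for senescence. In that fit 269 of all 19010 genes were higher and 160 lower. In drought against humidity, where 25.0% of all genes were higher and 41.8% lower, higher and lower calls numbered (as deposited in parentheses) 8 and 3 for the clock (10 and 0), 3 and 9 for nitrogen (3 and 5) and 3 and 6 for sulfur (4 and 3). They numbered 10 and 3 for senescence (13 and 3), 2 and 17 for growth (8 and 10), 6 and 3 for glucosinolates (12 and 0) and 2 and 5 for phosphate and iron (3 and 2). For sulfur and for phosphate and iron, lower calls outnumbered higher ones after centring and higher calls outnumbered lower ones as deposited. SULTR1;2, a sulfate transporter gene, was on opposite sides (-0.45 ± 0.10 in drought and 0.68 ± 0.10 in humidity), with drought at 0.09 as deposited.

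The heat-drought and heat groups gave a contrast of water shortage in 6 further libraries. Their values entered the choice of opposite-side genes only through the shared estimate of spread and the filter on low values. Neither group had water excess, so the contrast concerns the drought side only. In all, 14480 genes (76.2%) differed, 6120 (32.2%) higher and 8360 (44.0%) lower in heat-drought than in heat (12310 and 2420 as deposited). Of the 148 genes that were higher in drought and lower in humidity, 118 (79.7%) were higher in heat-drought and 6 lower, with a median difference of 0.86 against -0.12 over all genes. Of the 336 in the other direction, 263 (78.3%) were lower in heat-drought and 8 higher, with a median of -0.69. The same shares among all genes higher or lower in drought were not taken, so these counts do not set the opposite-side genes apart.

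P5CS1 stood at 7.16, 7.297 and 7.46 in heat-drought and 4.93, 4.44 and 5.16 in heat (difference 2.46, adjusted p = 8.25e-11). NCED3 stood at 2.57, 2.69 and 2.71 in heat-drought and -0.61, -1.38 and -0.60 in heat, and PYL4 at -1.77, -1.38 and -1.77 in heat-drought and -0.08, 0.87 and 0.12 in heat. In each of these genes the libraries of the groups did not overlap. The share of all genes without overlap there was not counted, and 76.2% of them passed limma's test.

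**Figure D4:**
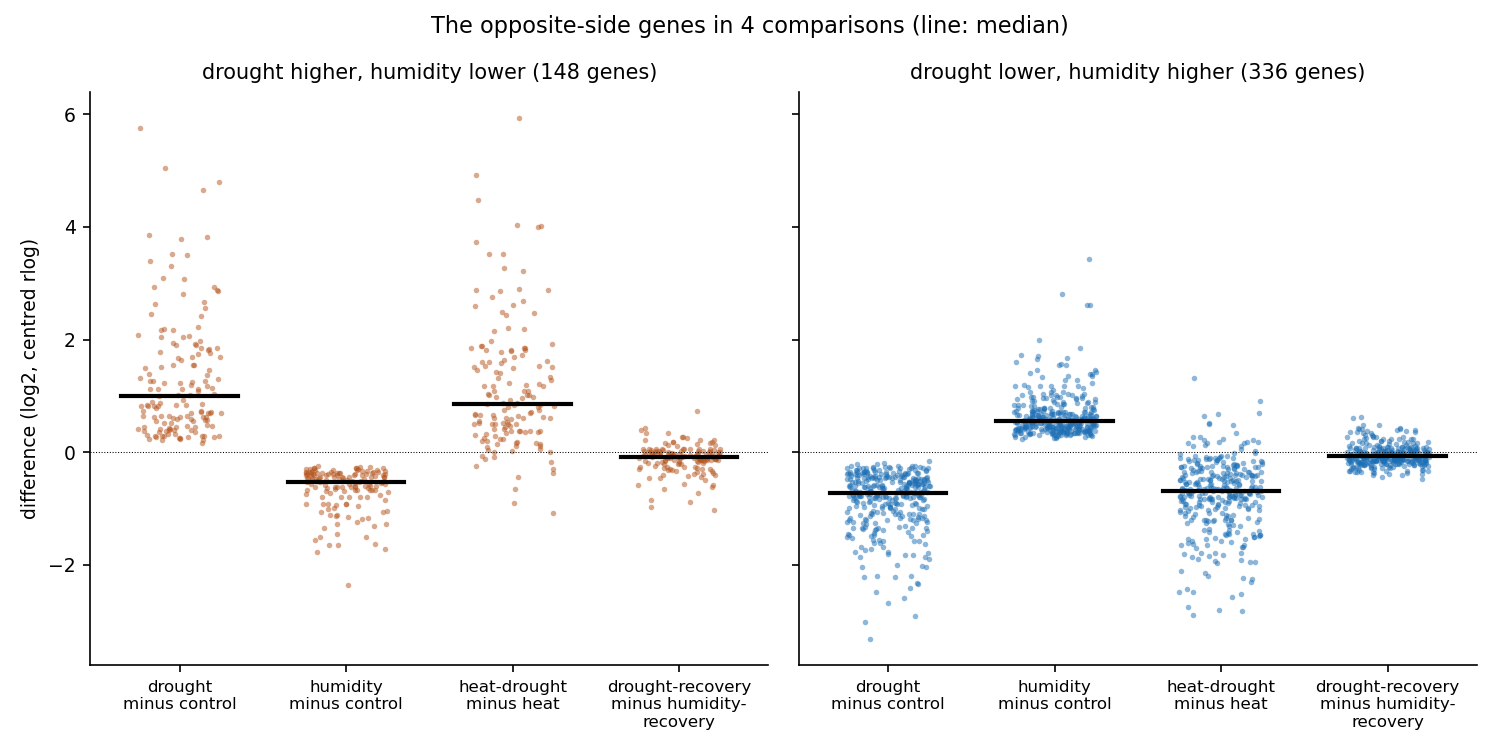
Differences (y, log2, centred rlog) of the 148 genes higher in drought and lower in humidity (left) and of the 336 in the other direction (right) in 4 comparisons (x); points are genes, lines medians. The first 2 columns of each panel were used to choose the genes; heat-drought minus heat has medians of 0.86 and -0.69, and drought-recovery minus humidity-recovery has medians of -0.08 and -0.07.

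LDOX stood at 0.65, -0.30 and -0.50 in heat-drought and 0.16, -0.21 and 0.25 in heat, a difference of -0.12 ± 0.27 (adjusted p = 0.703), against 1.84 ± 0.27 for drought over the control, and the test of the difference between these values had adjusted p = 0.000924. DFR, at 0.97, 0.37 and 0.30 in heat-drought and -0.02, -0.32 and 0.17 in heat, had a difference of 0.60 ± 0.30 (adjusted p = 0.0676), with adjusted p = 0.0106 for the same test. Of 18 flavonoid and anthocyanin genes, 7 were higher and 3 lower in heat-drought than in heat, where 32.2% of all genes were higher and 44.0% lower. The counts were 14 and 1 as deposited and 10 and 1 after quantile normalization. DIN10 overlapped, at 0.57, -0.03 and 1.98 in heat-drought and 0.63, 1.88 and 1.07 in heat. The test of whether the effect of water shortage differs with heat passed for 3079 genes (16.2%) and for 17 of the 66 named opposite-side genes. That test uses the drought and control values by which the genes were chosen, so its count over these genes is a description.

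**Figure D5:**
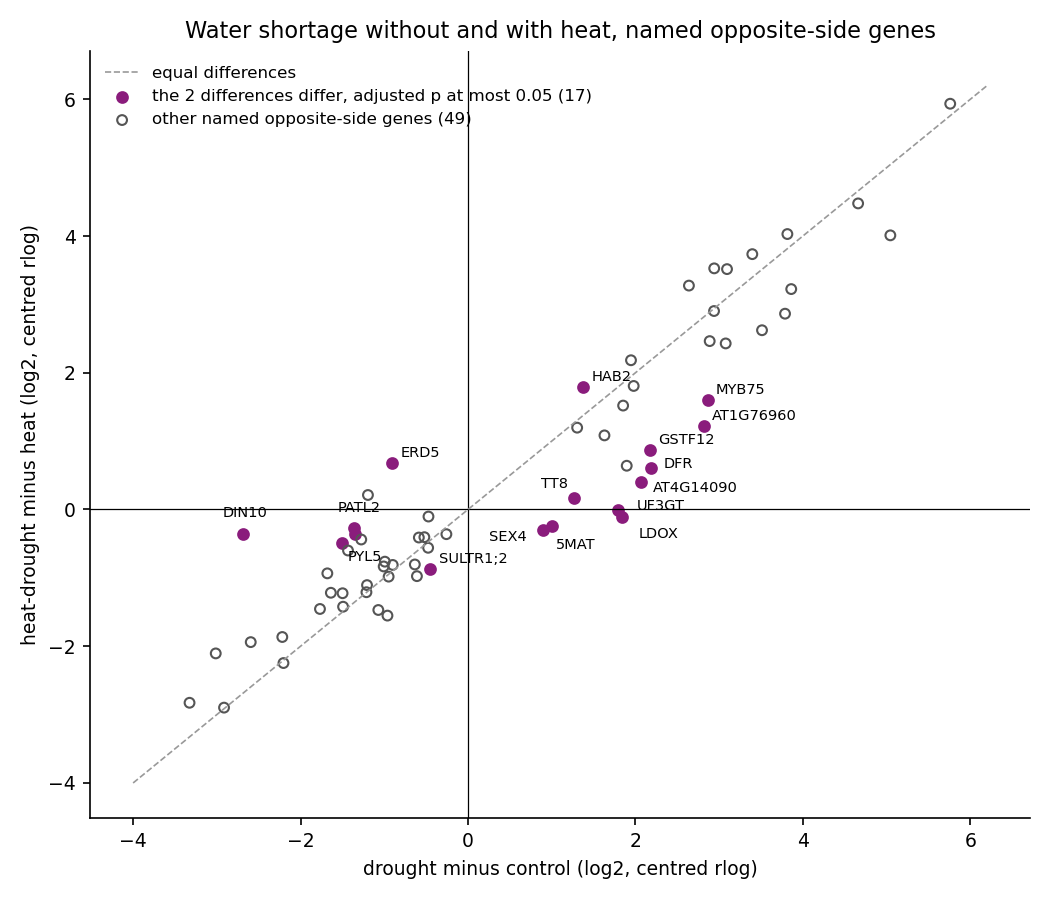
Heat-drought minus heat (y, log2, centred rlog) against drought minus control (x, same scale) for the 66 named opposite-side genes; filled points are the 17 whose difference between the comparisons passed limma's test, and the dashed line marks equal differences. LDOX, UF3GT, 5MAT and SEX4 lie between -0.31 and -0.004 in y at 0.89 to 1.84 in x, and ERD5 lies at 0.68 in y and -0.91 in x.

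Between drought-recovery and humidity-recovery leaves, after 3 days in standard conditions, 1 gene of 19010 (0.00526%) passed limma's test, with 2856 (15.0%) at an unadjusted p under 0.05, and 0 of the 484 opposite-side genes passed. The medians of the 148 and the 336 genes were -0.08 and -0.07, against -0.05 over all genes. GOLS2 stood at -0.95, -0.82 and -1.52 in drought-recovery and -0.66, -0.60 and -0.99 in humidity-recovery, where the end-points were 6.14 apart. PYL4 stood at 0.89, 1.35 and 1.68 in drought-recovery and 0.62, 0.96 and 1.29 in humidity-recovery. In both genes the groups overlapped. P5CS1 stood at 4.46, 3.74 and 3.60 in drought-recovery and 4.51, 4.61 and 4.40 in humidity-recovery, a difference of -0.57 ± 0.26 that did not pass (adjusted p = 0.294). The gene that passed, named after its values were seen, was ARPN, a plantacyanin, at -2.23, -1.95 and -1.82 in drought-recovery and -1.03, -0.96 and -1.23 in humidity-recovery (-0.92 ± 0.15, adjusted p = 0.00537). Without drought-recovery replicate 1, or without humidity-recovery replicate 1 or 2, 0 genes passed limma's test, with 3145, 2075 and 1956 at an unadjusted p under 0.05. The count depends on the fit: when the spread was estimated from the 6 recovery libraries alone, 1200 genes passed limma's test (2.76% higher and 3.56% lower), among them 4 higher and 7 lower of the 148 and 5 higher and 18 lower of the 336.

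All 19 measured genes of salicylic acid defence stood above 0 in drought-recovery minus humidity-recovery leaves, by 0.22 to 2.69, with a median of 1.02 against -0.05 over all genes. Their median was 0.46 between the drought and humidity end-points. None of the 19 passed limma's test in recovery, 15 had an unadjusted p under 0.05, and 2 were higher in the fit on the 6 recovery libraries alone. PAD3, an enzyme of camalexin synthesis, stood at -0.58, -0.21 and 0.41 in drought-recovery and -1.74, -3.55 and -3.15 in humidity-recovery, a difference of 2.69 ± 1.02 (adjusted p = 0.236). PR2, a glucanase gene that salicylic acid induces, stood at 1.16, 3.42 and 1.92 in drought-recovery and -0.15, 0.34 and -0.40 in humidity-recovery, a difference of 2.24 ± 0.98 (adjusted p = 0.281). The recovery groups did not overlap in either gene. All 22 measured photosystem antenna and Rubisco genes stood below 0 in the same comparison (median -0.32); 0 passed limma's test, 1 had an unadjusted p under 0.05, and 17 were lower in the fit on the 6 recovery libraries alone.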

How the data were processed

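RNA-seq of rosettes was used as the authors' deposited rlog table (log2 scale), with no counts used here. Per the submitters' processing notes, the tools were Trimmomatic, STAR, featureCounts and DESeq2 and the build TAIR10; their settings, versions, strand use and the step that gave the rlog values are not given in the sources used here. Of its columns, 6 were not matched to a sample and not used. Genes with a mean rlog of at least 3 (19010 of 28775) were kept and each library centred on its median gene. limma 3.58.1 in R 4.3.3 fitted 1 mean per group over 51 libraries, with a mean-variance trend, robust variance estimates and p-values adjusted by Benjamini-Hochberg over all genes; the procedure was tested on simulated data. Promoters came from RefSeq TAIR10.1. Alternatives were scaling, filters, fits on the groups compared, a replicate block and leaving out libraries; those on gene lists were added after seeing the data. Of the counted genes, 1 is not reported here by name.

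Members and 27 gene lists were chosen with earlier results of these data known. Named genes are, per direction, the 12 opposite-side genes with the largest smaller difference and the 8 largest drought minus humidity, the 6 highest and 6 lowest humidity differences, and list members (opposite-side, or up to 4 others by size; any of the aquaporin, ABA synthesis, proline and hypoxia lists).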

Additional observations from a re-analysis of the deposited data

Results flagged for a closer look

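The effect of water shortage differed with and without heat in 17 of the 66 named opposite-side genes, as limma's test of heat-drought minus heat less drought minus control found. Over all genes this test called 16.2%, and the drought and control values in it also chose the genes. Every value below is that double difference with its SE, and the part of any cause in it was not tested. Values are given for 16 of the 17.

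Among anthocyanin genes it was -1.958 ± 0.383 for LDOX (adjusted p = 0.000924), -1.79 ± 0.326 for UF3GT, -1.654 ± 0.31 for the glycosyltransferase AT4G14090 and -1.584 ± 0.425 for DFR. It was -1.306 ± 0.306 for GSTF12, -1.264 ± 0.304 for MYB75, -1.253 ± 0.275 for 5MAT and -1.1 ± 0.232 for TT8 (largest adjusted p of these 8, 0.0106). The uncharacterized AT1G76960 had -1.593 ± 0.557 (adjusted p = 0.0462).

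SEX4, a phosphatase of starch breakdown, had -1.198 ± 0.19 (adjusted p = 7.85e-05), and the sulfate transporter gene SULTR1;2 had -0.424 ± 0.139 (adjusted p = 0.0312). Values above 0 were found for DIN10 (2.331 ± 0.536, adjusted p = 0.00355) and ERD5 (1.587 ± 0.47, adjusted p = 0.0195). They were also found for PATL2 (1.085 ± 0.286, adjusted p = 0.00909), PYL5 (0.989 ± 0.273, adjusted p = 0.012) and HAB2 (0.41 ± 0.127, adjusted p = 0.0235). ERD5 stood at -0.70, -0.69 and 0.28 in heat-drought and -1.41, -0.61 and -1.13 in heat, against -1.68, -1.48 and -0.49 in drought and -0.33, -0.18 and -0.41 in the control.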

How the results depend on the processing

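With values as deposited the calls were 11129 higher and 2198 lower in drought than in humidity (83.5% higher, against 37.4% after centring), and 852 higher and 243 lower in humidity than in the control (77.8%, against 60.7%). Opposite-side genes numbered 484, but 317 as deposited, 216 when only the groups compared were fitted and 48 with differences of at least 1. For humidity against control the count of 1120 became 1755 with quantile normalization, 582 in a fit on the groups compared and 105 at a difference of at least 1. Without the filter on low values drought gave 19840 calls against humidity and 20002 against control. At a difference of at least 1 the calls were 2138 for drought against humidity, 1945 for drought against control and 3297 for heat-drought against heat. Drought against humidity in recovery gave 1 call, 2 as deposited, 0 at a difference of at least 1 and 1200 in a fit on the groups compared. The cause of these changes was not tested.

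Leaving out 1 library at a time gave 11153 to 12655 calls for drought against humidity, 11341 to 12787 for drought against control and 13364 to 14341 for heat-drought against heat. It gave 429 (without humidity replicate 3) to 1329 (without humidity replicate 1) for humidity against control, with 674 without control replicate 2 and 545 without control replicate 3. For opposite-side genes it gave 249 (without humidity replicate 3) to 515 (without humidity replicate 1), with 320 without control replicate 2 and 265 without control replicate 3, and for recovery 0 to 2. With the replicate number as a block the calls were 12762, 12922, 1238 and 528 for drought against humidity, drought against control, humidity against control and opposite sides, 1 for recovery and 14549 for heat-drought against heat. With each gene's group mean taken out, same-numbered drought and humidity libraries correlated with r of 0.145, 0.0928 and 0.151. Differently numbered ones had r of -0.132 to 0.0654. For drought and control the same-numbered values were -0.181, 0.187 and -0.111, and the others -0.192 to 0.229. For humidity and control they were 0.0269, 0.055 and 0.026, and the others -0.0414 to -0.00241. These values do not settle whether the numbers pair the samples.

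For 145 differences of named genes, with humidity against control and drought against humidity pooled, 1305 alternatives gave 1182 with the same call. Of the rest, 123 no longer passed and 0 had the opposite direction. Drought against control is not in that count. As deposited it did not pass in 12 of the 66 named opposite-side genes, and its sign turned in 5. Humidity against control did not pass as deposited in 7 of these 66 genes. Without humidity replicate 3, 47 of them stayed on opposite sides. The files hold no counts, so depth is unknown and no interval rests on it. The only control comes from the recovery setup, so the setup and the treatment cannot be told apart against it.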
